A study of Homo sapiens with 6 samples.

Results

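Small nucleolar RNA (snoRNA) host genes were examined in HepG2 cells, a human line derived from a hepatocellular carcinoma, after knockdown of the deoxyguanosine kinase gene DGUOK. The genes were chosen by symbol: GAS5, SNHG1, SNHG5, SNHG6, SNHG7, SNHG8, SNHG12, SNHG15, SNHG16 and ZFAS1, which are 10 of the 34036 genes in the count table. Poly(A) RNA was sequenced from 3 cultures given a non-targeting siRNA (siControl) and 3 given a pool of siRNAs against DGUOK (siDGUOK), all transfected with Lipofectamine RNAiMAX and harvested 48 h later. No other agent was given, and knockdown by a transient pool leaves part of the target transcript. The groups were read from the sample titles and library names, because the treatment field names siControl for all 6 libraries. The RNA is given as poly(A), but the extraction protocol leaves the enrichment step and the kit undecided, so that strandedness is not known.

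Most vertebrate snoRNAs lie in introns, and a host gene is the gene whose spliced-out introns are trimmed into them. Box C/D snoRNAs guide methylation of the ribose and box H/ACA snoRNAs guide pseudouridylation, mainly of ribosomal RNA. The exons of noncoding hosts such as GAS5 and ZFAS1 are joined into a transcript that codes for no known long protein. That transcript often starts with a terminal oligopyrimidine (TOP) tract like those of ribosomal protein mRNAs, which ties its translation to growth signals through mTOR, and ribosomes that load on it expose it to nonsense-mediated decay. The host gene counts analysed here are those of the exons, and mature snoRNAs carry no poly(A) tail.

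The start regions are shown because a TOP tract, where a host has one, begins at the start of its transcript. RefSeq windows on GRCh38.p14 were matched by symbol for 8 of the 10 genes; SNHG6 and SNHG15 were not matched. Each sequence runs 5′ to 3′ on the transcribed strand from 40 bases before the annotated start, so that the start is base 41 of 60. Capitals mark the longest unbroken run of C and T that touches the 10 bases on either side of the start, and TATAA where it lies 40 to 20 bases before it.
SNHG5, chr6:85678714-85678773, minus strand: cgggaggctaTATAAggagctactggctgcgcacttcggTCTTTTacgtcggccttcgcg
ZFAS1, chr20:49278602-49278661, plus strand: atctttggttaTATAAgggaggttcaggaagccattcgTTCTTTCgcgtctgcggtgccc
SNHG12, chr1:28581854-28581913, minus strand: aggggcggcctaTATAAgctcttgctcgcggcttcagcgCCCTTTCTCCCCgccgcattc
SNHG7, chr9:136728165-136728224, minus strand: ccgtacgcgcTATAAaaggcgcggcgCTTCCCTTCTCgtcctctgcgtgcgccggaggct
SNHG8, chr4:118278722-118278781, plus strand: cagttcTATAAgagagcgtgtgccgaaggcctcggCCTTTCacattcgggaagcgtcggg
SNHG1, chr11:62855866-62855925, minus strand: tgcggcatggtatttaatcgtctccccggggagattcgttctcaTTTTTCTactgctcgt
SNHG16, chr17:76557724-76557783, plus strand: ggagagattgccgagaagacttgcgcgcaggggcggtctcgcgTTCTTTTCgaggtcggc
GAS5, chr1:173869026-173869085, minus strand: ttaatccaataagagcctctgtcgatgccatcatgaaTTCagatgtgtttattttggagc

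A run of C and T of at least 6 bases was present near the start in 7 of these 8 genes, against 31.1% of 35116 RefSeq promoters. The run was longest in SNHG12, at 12 bases, and SNHG7, at 11 bases. It covered the start base itself in SNHG5, SNHG8, SNHG12 and ZFAS1, and in SNHG8 it ended there. In SNHG7 it lay wholly before the start, and in SNHG1 and SNHG16 wholly after it. A shorter unmarked run spans the start base in SNHG7 and in SNHG1. TATAA on the transcribed strand was found 40 to 20 bases before the start in 5 of the 8 genes (SNHG5, SNHG7, SNHG8, SNHG12 and ZFAS1), against 3.91% of all promoters. In the whole windows of 300 bases, CACGTG, which reads the same on both strands and is an E-box, was found in 1 gene, SNHG7 (7.26% of all promoters). CCAAT on either strand was found in 2, GAS5 and SNHG5 (34.6% of all promoters). The printed starts are those of RefSeq, and Gencode 44 gives the same outermost start for SNHG7 alone. The RefSeq start of GAS5, with no long run of C and T near it, lies 163 bases upstream of that of Gencode. The others lie downstream, given here as negative positions relative to the Gencode start: −1259 bases for SNHG12, −464 for ZFAS1, −199 for SNHG5, −68 for SNHG1, −59 for SNHG8 and −37 for SNHG16. A count of runs at the Gencode starts was not made. These are matches of letters and were not tested for binding or use.

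Library totals were 10527216 to 19065684 counts in siControl and 15978314 to 21334876 in siDGUOK cells. DGUOK was 54.4, 53.1 and 48.2 CPM in siControl replicates 1, 2 and 3, and 9.08, 10.53 and 6.72 CPM in siDGUOK replicates 1, 2 and 3, which fits the titles. CPM, counts normalised to sequencing depth, were computed with TMM-adjusted library sizes. Hepatocyte markers were abundant, and 8 of the 9 listed (all but SERPINA1) passed edgeR's test as lower in siDGUOK cells, their sum being 46130 to 52870 CPM in siControl and 22500 to 27420 CPM in siDGUOK libraries. Of 9 markers of other cell types, LYZ was present at 1668.5 ± 51.0 CPM in siControl and 1801.8 ± 82.1 CPM in siDGUOK cells (SD, n = 3). The other 8 (PTPRC, CD3E, CD68, COL1A1, COL3A1, PECAM1, VWF and KRT7) summed to 3.15 to 8.95 CPM in siControl and 25.2 to 97.4 CPM in siDGUOK libraries, COL1A1 alone being called, and COL3A1 was at 0 in siControl replicates 1 and 3. Their part in the results was not tested, and in such bulk RNA fewer cells of a type cannot be told apart from less RNA per cell.

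Of the 10 host genes, 9 had enough counts for the test and SNHG15 did not. A gene is said to have risen or fallen when its adjusted p in edgeR's quasi-likelihood test was under 0.05, and is called when its log2 fold change was also above 0.5 in size. GAS5, SNHG5 and ZFAS1 rose in siDGUOK cells, none fell, and 6 did not pass the test. Of the 14476 genes tested, 19.7% passed the adjusted p, 10.3% rising and 9.35% falling. SNHG5 alone was called, where 14.1% of all genes tested were called, 7.42% higher and 6.68% lower. Among noncoding genes as a class (lincRNA, antisense and related biotypes), 7.33% of 1309 tested were called, 6.19% higher and 1.15% lower. The median log2 fold change of the 9 host genes was 0.31, against 0.02 for all genes tested and 0.20 for the 1309 noncoding ones. No siDGUOK library lay within the siControl range for 6 of the 9 genes, 4 with siDGUOK above and 2 with siDGUOK below; over all genes tested the groups did not overlap for 36.0%. Those shares were 18.7% with siDGUOK above and 17.3% with siDGUOK below.

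**Figure D1:**
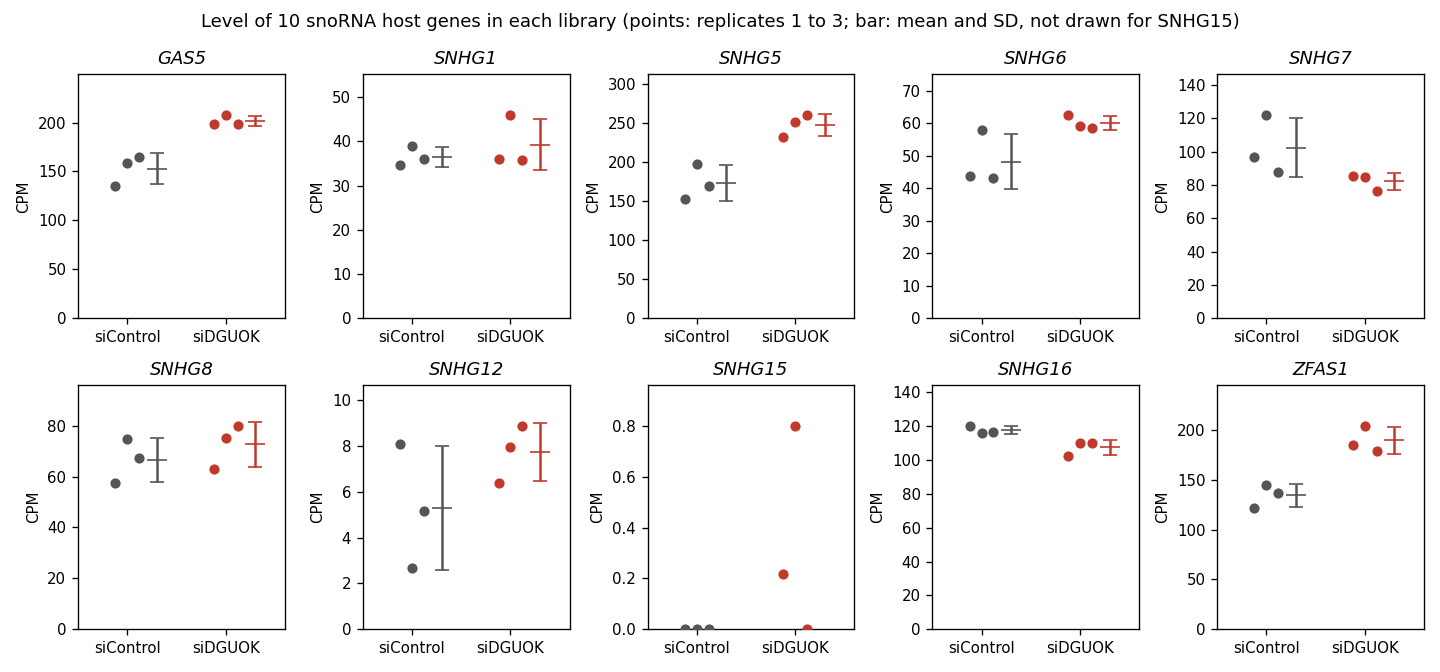
Level of each of the 10 host genes in CPM (vertical axis, starting at 0) in the 3 siControl and 3 siDGUOK libraries; points are libraries and the bars give the mean and SD, which are left out for SNHG15. The siDGUOK points lie above all siControl points for GAS5, SNHG5, SNHG6 and ZFAS1 and below them for SNHG7 and SNHG16.

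SNHG5 (ENSG00000203875.10) lies on the minus strand of chromosome 6 from 85650491 to 85678932 in Gencode 44 on GRCh38, and hosts the box C/D snoRNAs of the SNORD50 group. It was at 152, 198 and 170 CPM in siControl replicates 1, 2 and 3. In siDGUOK replicates 1, 2 and 3 it was at 233, 251 and 260 CPM, each above every siControl value. The mean went from 173 ± 22.9 to 248 ± 14.04 CPM (SD, n = 3). SNHG5 thus rose 1.43-fold, a log2 fold change of 0.52 ± 0.10 (SE) at an edgeR adjusted p of 6.69e-04. The call did not hold in every fit. The shrunken DESeq2 value, on which the study sets its threshold, was 0.49 and not called. Leaving out siControl replicate 1 gave 0.43 and leaving out siDGUOK replicate 3 gave 0.47, with the adjusted p from edgeR still at 0.0065 and 0.0046.

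ZFAS1 (ENSG00000177410.12), on the plus strand of chromosome 20 from 49278178 to 49299600, hosts the 3 box C/D snoRNAs SNORD12, SNORD12B and SNORD12C. Its levels were 122, 145 and 137 CPM in siControl replicates 1, 2 and 3. They were 185, 204 and 179 CPM in siDGUOK replicates 1, 2 and 3, so that the groups did not overlap. The rise was 1.41-fold, from 135 ± 11.7 to 189 ± 13.1 CPM (SD, n = 3). A log2 fold change of 0.49 ± 0.09 (SE), at an edgeR adjusted p of 7.55e-04, was just under the threshold for a call. Leaving out 1 library moved the value between 0.43 and 0.55 and made ZFAS1 a called gene in 3 of 6 fits, those without siControl replicate 2, siControl replicate 3 or siDGUOK replicate 3.

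GAS5 (ENSG00000234741.7), the growth arrest specific transcript, lies on the minus strand of chromosome 1 from 173858559 to 173868882 and is a classic host of box C/D snoRNAs. It was at 135, 159 and 165 CPM in siControl replicates 1, 2 and 3. All 3 siDGUOK libraries were higher and close to each other, at 198, 208 and 199 CPM. The mean rose 1.32-fold from 153 ± 16.1 to 202 ± 5.20 CPM (SD, n = 3), which is a log2 fold change of 0.40 ± 0.09 (SE) at an edgeR adjusted p of 0.0038. GAS5 passed the adjusted p in each of the 6 fits without 1 library, with log2 fold changes of 0.32 to 0.46, all under the size needed for a call.

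SNHG6 (ENSG00000245910.8), on the minus strand of chromosome 8 from 66920561 to 66926398, hosts the box C/D snoRNA SNORD87. It was at 43.7, 58.0 and 43.1 CPM in siControl replicates 1, 2 and 3 and at 62.6, 59.3 and 58.4 CPM in siDGUOK replicates 1, 2 and 3. The groups did not overlap, but siControl replicate 2 lay just below the lowest siDGUOK library. SNHG6 did not pass the test, at 0.31 ± 0.14 (SE) on the log2 scale and an edgeR adjusted p of 0.127. Without siControl replicate 2 it was 0.47 with an adjusted p of 0.0261 from edgeR's test, still under the size for a call, so that this library decides whether SNHG6 passes.

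SNHG1 and SNHG16 are the other hosts of box C/D snoRNAs alone, and neither passed the test. SNHG1 (ENSG00000255717.6), on the minus strand of chromosome 11 from 62851978 to 62855953, is known as the host of SNORD22 and SNORD25 to SNORD31. It was at 34.6, 38.9 and 35.9 CPM in siControl replicates 1, 2 and 3 and at 36.0, 46.0 and 35.9 CPM in siDGUOK replicates 1, 2 and 3. The groups overlapped, with siDGUOK replicate 2 the highest library. The log2 fold change was 0.11 (95% interval −0.22 to 0.43, adjusted p = 0.719 from edgeR's test), and −0.020 without siDGUOK replicate 2. SNHG16 (ENSG00000163597.14), on the plus strand of chromosome 17 from 76557727 to 76670985, hosts SNORD1A, SNORD1B and SNORD1C. Its siControl replicates were the closest to each other of any gene of the family, at 120, 116 and 117 CPM in siControl replicates 1, 2 and 3 and 103, 110 and 110 CPM in siDGUOK replicates 1, 2 and 3. All siDGUOK libraries were below all siControl libraries, yet the log2 fold change of −0.13 (95% interval −0.32 to 0.06, adjusted p = 0.387 from edgeR's test) did not pass.

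SNHG7, SNHG8 and SNHG15 host box H/ACA snoRNAs, and SNHG12 hosts both kinds. SNHG7 (ENSG00000233016.6), on the minus strand of chromosome 9 from 136721366 to 136728184, hosts SNORA17A and SNORA17B. Its levels were 97.0, 122 and 87.9 CPM in siControl replicates 1, 2 and 3. They were 85.4, 84.6 and 76.5 CPM in siDGUOK replicates 1, 2 and 3, all lower than every siControl library. The log2 fold change was −0.32 (95% interval −0.57 to −0.07), and the adjusted p of 0.0737 from edgeR's test did not pass. It was 0.0426 without siControl replicate 3 (log2 fold change −0.41) and 0.351 without siControl replicate 2 (−0.17), the library with the highest value. With no count filter it was 0.0469 in edgeR.

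SNHG8 (ENSG00000269893.6), on the plus strand of chromosome 4 from 118278703 to 118285316, is the host of SNORA24. It was at 57.4, 74.7 and 67.4 CPM in siControl replicates 1, 2 and 3 and at 62.8, 75.0 and 79.9 CPM in siDGUOK replicates 1, 2 and 3. The groups overlapped, and the log2 fold change was 0.13 (95% interval −0.15 to 0.40, adjusted p = 0.576 from edgeR's test). SNHG12 (ENSG00000197989.13), on the minus strand of chromosome 1 from 28578538 to 28583132, hosts SNORA16A, SNORA44, SNORA61 and SNORD99. It was at 8.07, 2.66 and 5.15 CPM in siControl replicates 1, 2 and 3 and at 6.38, 7.94 and 8.88 CPM in siDGUOK replicates 1, 2 and 3. Its log2 fold change of 0.55 was the largest of the family, but with an interval of −0.29 to 1.38 and an adjusted p of 0.401 from edgeR's test it did not pass, and the groups overlapped. That value was 1.00 without siControl replicate 1 and 0.22 without siControl replicate 2. The siControl values of SNHG12 varied by 51.1% of their mean, against a counting error of 14.1% at its lowest count of 50.

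SNHG15 (ENSG00000232956.8), on the minus strand of chromosome 7 from 44983019 to 44986961 and host of SNORA9, had 4 counts in siDGUOK replicate 1, 13 in siDGUOK replicate 2 and 0 in the other 4 libraries. A count of 0 allows up to 3 counts, or 0.16, 0.16 and 0.286 CPM in siControl replicates 1, 2 and 3 and 0.138 CPM in siDGUOK replicate 3, for counting error alone. With too few counts for the test, no fold is given.

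**Figure D2:**
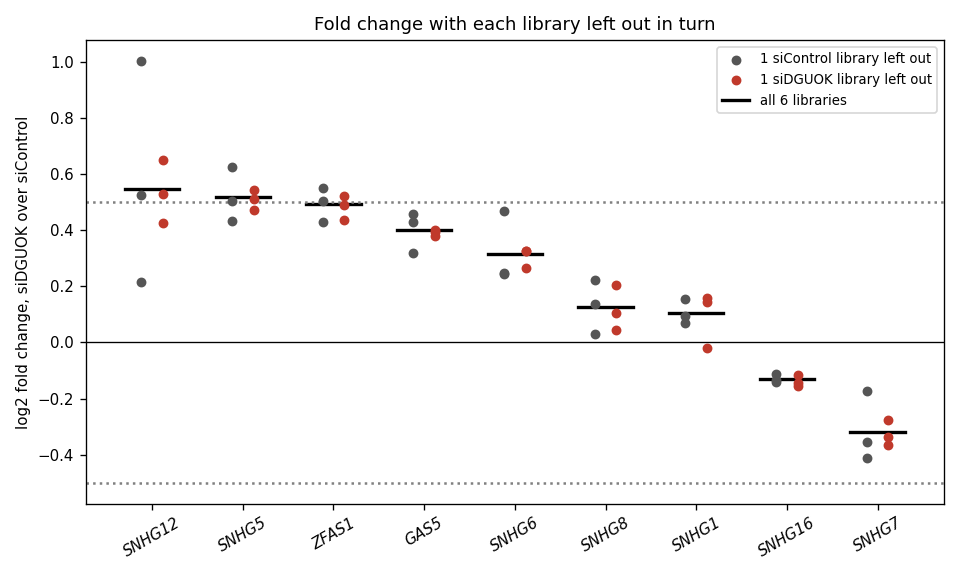
The log2 fold change of each tested host gene (vertical axis) in the fit of all 6 libraries (black bars) and in the 6 fits that leave out 1 library (points, colored by the group of the library left out), with dotted lines at 0.5 in size. GAS5, SNHG5 and ZFAS1 stay between 0.32 and 0.62, SNHG12 spreads from 0.22 to 1.00, and SNHG1 is the only gene that crosses 0.

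The counts of the 10 genes together made up 0.0756% to 0.0907% of the siControl libraries and 0.0967% to 0.106% of the siDGUOK libraries. Their sum was 837 ± 72.3 CPM in siControl and 1009 ± 37.2 CPM in siDGUOK cells (SD, n = 3), lowest in siControl replicate 1, at 770 CPM, and highest in siDGUOK replicate 2, at 1047 CPM. Within this sum SNHG5 took 20.6% on average in siControl and 24.6% in siDGUOK cells, and SNHG7 took 12.2% and 8.15%. Levels of different genes can be compared only per length. With the median length of the annotated transcripts of each gene, the order in siControl cells in RPKM (CPM divided by length in kilobases) was GAS5 at 209 ± 21.98, ZFAS1 at 196 ± 17.0, SNHG5 at 157 ± 20.7 and SNHG8 at 136 ± 17.8 (SD, n = 3). SNHG6 followed at 92.9 ± 16.2, SNHG7 at 87.5 ± 15.0, SNHG16 at 47.8 ± 0.950, SNHG1 at 27.9 ± 1.70 and SNHG12 at 4.89 ± 2.50. GAS5 and ZFAS1, SNHG5 and SNHG8, and SNHG6 and SNHG7 did not differ from their neighbour beyond these SDs. In siDGUOK cells ZFAS1 and GAS5 were level, at 276 ± 19.1 and 276 ± 7.12 RPKM, and SNHG5 was at 225 ± 12.7. This order depends on the length: with that of the canonical transcript SNHG16 came first in siControl cells, at 236 RPKM, and with all exons merged GAS5 came first, at 31.0 RPKM.

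Ratios of counts within 1 library do not depend on how libraries are scaled. The pairs were chosen after the values were seen, so no test is given. In CPM, every siDGUOK library was above siControl for GAS5, SNHG5, SNHG6 and ZFAS1 and below it for SNHG7. Their ratios to SNHG7 were therefore bound to be apart, so that this separation is no further evidence. SNHG5 had 1.57, 1.62 and 1.93 counts for each count of SNHG7 in siControl replicates 1, 2 and 3, and 2.73, 2.97 and 3.40 in siDGUOK replicates 1, 2 and 3. The mean log2 difference of this ratio was 0.83. The ratio of SNHG6 to SNHG7 was 0.450, 0.476 and 0.490 in siControl replicates 1, 2 and 3 and 0.733, 0.701 and 0.764 in siDGUOK replicates 1, 2 and 3. GAS5 and ZFAS1 moved against SNHG7 by 0.71 and 0.80 on the log2 scale. The groups overlapped in the ratios among the 3 genes that rose. ZFAS1 to GAS5 was 0.882 ± 0.0475 in siControl and 0.939 ± 0.0421 in siDGUOK cells (SD, n = 3), and SNHG5 to GAS5 was 1.13 ± 0.107 and 1.23 ± 0.0698.

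**Figure D3:**
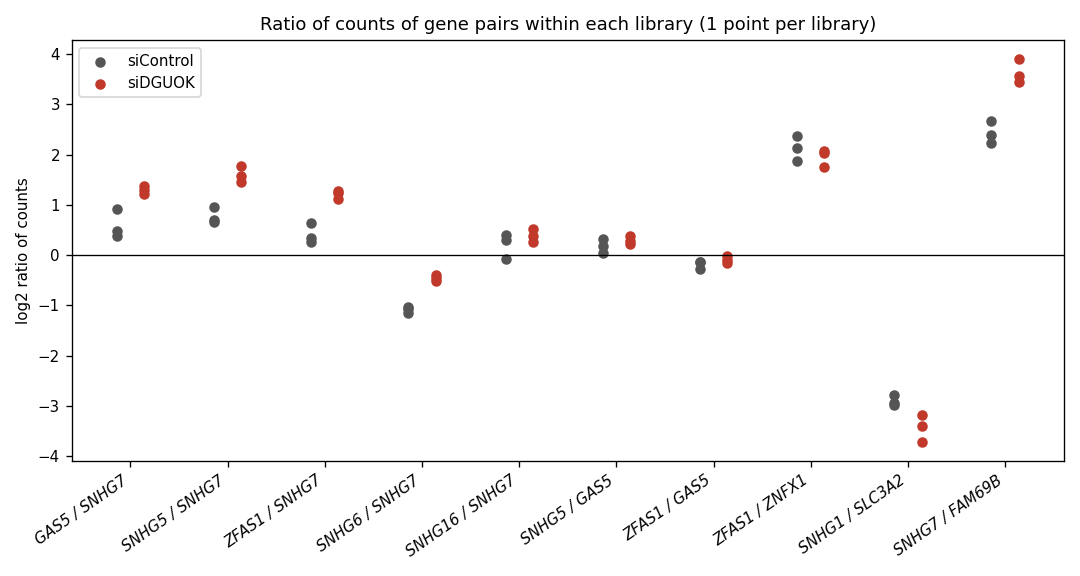
The log2 ratio of the counts of 2 genes within each library (vertical axis; 1 point per library, 3 siControl and 3 siDGUOK) for 10 gene pairs named on the horizontal axis. The points of the groups are apart for GAS5, SNHG5, ZFAS1 and SNHG6 over SNHG7, as the levels of these genes alone require. They are also apart for SNHG1 over SLC3A2 and for SNHG7 over FAM69B, which the ranges of the levels of these genes likewise require. They overlap for SNHG16 over SNHG7, SNHG5 and ZFAS1 over GAS5 and ZFAS1 over ZNFX1.

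Several host genes share their locus with a gene on the opposite strand, and the default counting ignores strand, so that reads from overlapping parts cannot be told apart or were left out. ZNFX1, which encodes a zinc finger RNA helicase, starts 248 bases from the start of ZFAS1 and overlaps it. ZNFX1 rose from 31.2 ± 5.52 to 49.5 ± 10.0 CPM (SD, n = 3), which is a log2 fold change of 0.67 ± 0.17 (SE) at an edgeR adjusted p of 0.0088. That call was lost without siControl replicate 1 (adjusted p = 0.0511) or siDGUOK replicate 2 (adjusted p = 0.0712, edgeR). The ratio of ZFAS1 to ZNFX1 was 4.39 ± 0.760 in siControl and 3.89 ± 0.474 in siDGUOK cells (SD, n = 3), and the groups overlapped. SLC3A2, the heavy chain of amino acid transporters, starts 51 bases from SNHG1 on the other strand. It rose from 271 ± 8.90 to 422 ± 46.0 CPM (SD, n = 3), a log2 fold change of 0.64 ± 0.08 (SE) at an edgeR adjusted p of 2.13e-05, whereas SNHG1 did not pass. The ratio of SNHG1 to SLC3A2 was lower in all siDGUOK libraries, at 0.0939 ± 0.0171 against 0.135 ± 0.0096 in siControl cells (SD, n = 3). The ranges of both levels already set these ratios apart, so that this separation is no further evidence.

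FAM69B, now named DIPK1B, overlaps the 3′ part of SNHG7 on the opposite strand. It fell from 18.8 ± 0.360 to 6.75 ± 1.42 CPM (SD, n = 3), which is a log2 fold change of −1.48 ± 0.25 (SE) at an edgeR adjusted p of 2.99e-04. Its part in the lower SNHG7 counts was not tested; SNHG7 had 5.44 ± 0.840 counts for each count of FAM69B in siControl and 12.5 ± 2.10 in siDGUOK cells (SD, n = 3). ZBTB37, which overlaps GAS5, had a log2 fold change of −0.23, and TRNAU1AP, which overlaps SNHG12, had 0.22. In edgeR the adjusted p was 0.771 for ZBTB37 and 0.641 for TRNAU1AP. GAS5-AS1, MCMDC2 and PRSS12, which overlap GAS5, SNHG6 and SNHG8, had at most 24 counts in any library and were not tested.

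The hosted snoRNAs themselves could hardly be measured. The annotation used here placed 26 snoRNA gene entries inside 9 of the host genes and none inside GAS5. The snoRNAs known for GAS5 were therefore not analysed. Some entries cover the same locus, such as the paired ones of SNORA16A and SNORA17B. Of the 26 entries, 5 had a row in the table. SNORD99 of SNHG12 had 0, 25 and 3 counts in siControl and 4, 13 and 22 in siDGUOK replicates 1, 2 and 3, an overlap of the groups (0.31 ± 1.53 on the log2 scale, SE, with an edgeR adjusted p of 0.929). SNORD1B of SNHG16 had 28 counts in siDGUOK replicate 3 and 0 elsewhere, SNORD12B of ZFAS1 had 8 in siDGUOK replicate 1 alone, and SNORD12C of ZFAS1 had at most 5. All snoRNA rows of the table together held 135 to 440 counts per library, at most 0.00206% of a library. Of 183 such rows 8 were tested and none was called by edgeR, 1 of them (SNORD101, adjusted p = 0.0751) having an unadjusted p under 0.05. The part of depth and of RNA selection in these low counts was not tested.

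Other noncoding snoRNA hosts gave a background for the family. Of 22 such genes listed, 19 were in the table and 16 were tested. SNHG3 rose from 11.8 ± 1.02 to 20.3 ± 1.62 CPM (SD, n = 3), which is a log2 fold change of 0.79 ± 0.21 (SE) at an edgeR adjusted p of 0.0124, and was the only one called; the adjusted p was 0.0629 without siDGUOK replicate 1. C6orf48, now SNHG32, fell from 155 ± 20.6 to 126 ± 5.13 CPM (SD, n = 3), a log2 fold change of −0.30 ± 0.10 (SE) at an edgeR adjusted p of 0.0457. LRRC75A-AS1, now SNHG29, had the most counts among them, at 472 ± 28.1 CPM in siControl and 510 ± 3.58 CPM in siDGUOK cells (SD, n = 3), and did not pass (0.11 on the log2 scale, edgeR adjusted p of 0.329). The median of the 16 was −0.12, and several of the lowest had wide intervals, such as SNHG25 and SNHG9 with 0 to 56 and 5 to 36 counts per library. The sign of this median depends on the list. Among 40 noncoding genes, beyond the family, that hold an annotated snoRNA, 20 were tested, 1 rose (SNHG3), none fell, and the median was 0.08. These share genes with the first list, such as SNHG3 and LRRC75A-AS1, but leave out C6orf48, whose row is labelled protein-coding.

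**Figure D4:**
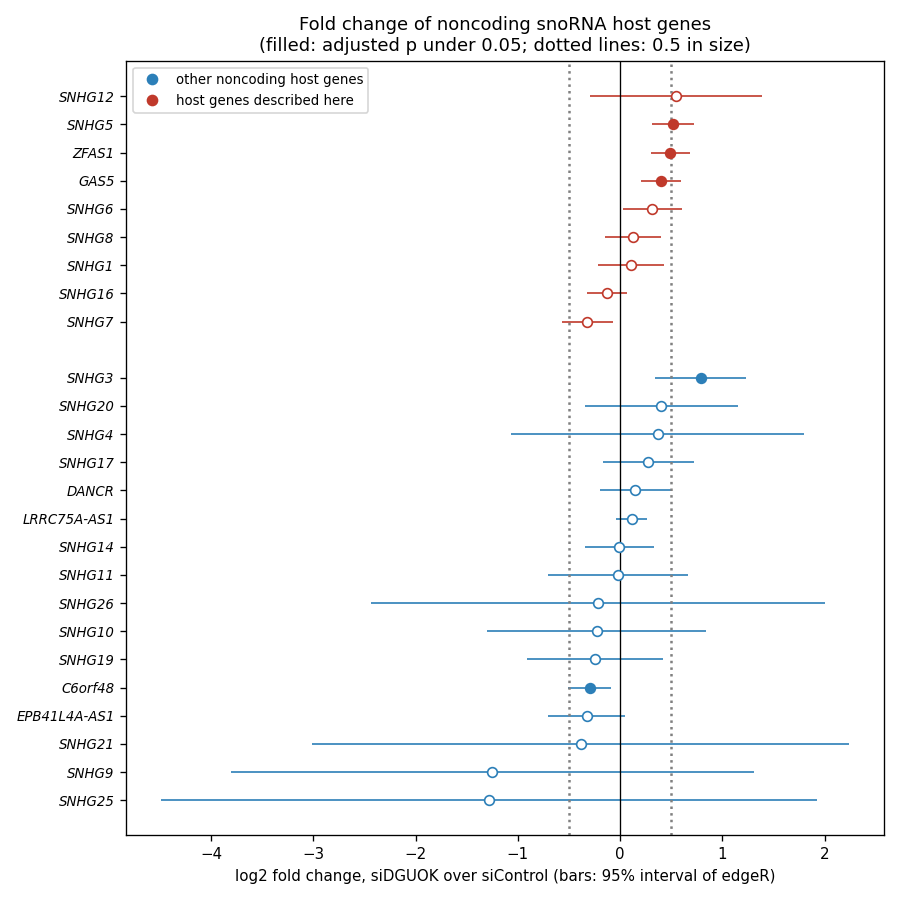
The log2 fold change of siDGUOK over siControl (horizontal axis) with its 95% interval from edgeR for the 9 tested host genes (red) and 16 other noncoding snoRNA hosts (blue), where filled points have an adjusted p under 0.05 and dotted lines mark 0.5 in size. SNHG5, ZFAS1, GAS5 and SNHG3 are filled to the right of 0, C6orf48 is filled to the left, and the widest intervals belong to hosts with few counts.

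Among 44 protein-coding genes known to host snoRNAs, 8 rose, 3 fell and 33 did not pass, with a median log2 fold change of 0.07. Over all genes tested, 10.3% rose and 9.35% fell. TPT1, a translationally controlled growth protein, was the only one called. It rose from 3495 ± 85.5 to 5059 ± 194 CPM (SD, n = 3), or by 0.53 on the log2 scale, at an edgeR adjusted p of 4.91e-06. On the same scale the ribosomal protein gene RPL10 rose by 0.41 and the elongation factor gene EEF1B2 by 0.35. NCL, which encodes nucleolin, fell by 0.38 on the log2 scale, and CNOT1, the scaffold of the deadenylase complex, fell by 0.39. A wider list of 247 protein-coding genes that hold an annotated snoRNA on the same strand had 199 tested, of which 24 rose and 25 fell, with a median of 0.01.

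Proteins that bind and assemble snoRNAs were read next. Of 19 snoRNP core and assembly factors, all tested, 1 rose, none fell and 18 did not pass. ZNHIT3, an assembly factor for box C/D particles, rose with a log2 fold change of 0.50 ± 0.17 (SE) at an edgeR adjusted p of 0.0444. The methyltransferase FBL was at 171 ± 11.4 and 164 ± 2.19 CPM in siControl and siDGUOK cells, and the pseudouridine synthase DKC1 was at 81.5 ± 14.1 and 64.6 ± 4.42 CPM (SD, n = 3). Neither passed, with log2 fold changes of −0.07 and −0.33.

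Since noncoding host transcripts are known substrates of nonsense-mediated decay, its factors and other substrates were read beside them. Of 16 decay factors, UPF2, which bridges UPF1 to the exon junction, fell from 42.9 ± 6.90 to 28.5 ± 4.89 CPM (SD, n = 3). This is −0.59 ± 0.17 (SE) on the log2 scale at an edgeR adjusted p of 0.0201, and the other 15 did not pass. The UPF2 call was lost without siControl replicate 1 (adjusted p = 0.138), siControl replicate 3 (0.0550) or siDGUOK replicate 3 (0.0845, edgeR). The helicase UPF1 was at 139 ± 10.8 and 117 ± 2.80 CPM in siControl and siDGUOK cells (SD, n = 3), or −0.25 on the log2 scale, and did not pass in edgeR (adjusted p = 0.0686). Of 12 other transcripts known as substrates, 4 rose and none fell, with a median log2 fold change of 0.32. For comparison, 10.3% of all genes tested rose and 9.35% fell. GADD45B, GADD45A and ATF3, which are stress response genes, had log2 fold changes of 0.73, 0.65 and 0.59, and ATF4 had 0.36. Without siDGUOK replicate 2 ATF3 was at 0.49 and lost its call. The part of decay in these values was not tested.

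Of 16 TOP mRNAs outside the ribosomal proteins, 5 rose and 2 fell, with a median log2 fold change of 0.18. The shares over all genes tested were 10.3% rising and 9.35% falling. Besides TPT1 and EEF1B2, EEF1A1, EIF3E and NAP1L1 rose with log2 fold changes of 0.27, 0.36 and 0.24, and HNRNPA1 and EIF4B fell by 0.28 and 0.22 on the log2 scale. Of 9 genes of growth control, EIF4EBP1, an mTOR substrate that holds back cap-dependent translation, was the only one that passed. It rose from 62.6 ± 14.6 to 105 ± 1.51 CPM (SD, n = 3), or by 0.74 on the log2 scale, at an edgeR adjusted p of 5.36e-04. MYC, a driver of ribosome synthesis, was at 192 ± 8.14 and 195 ± 15.6 CPM (SD, n = 3), which is a log2 fold change of 0.02. MTOR and LARP1, which binds TOP tracts, had log2 fold changes of −0.38 and −0.21 and did not pass.

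**Figure D5:**
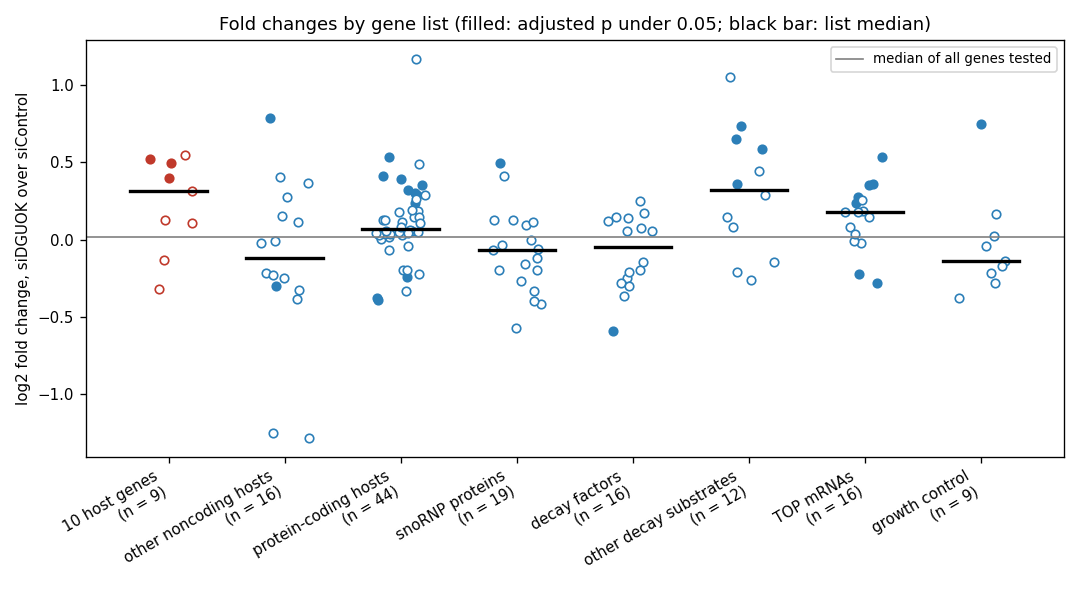
The log2 fold change of siDGUOK over siControl (vertical axis) for each tested gene of 8 lists named with their size on the horizontal axis; filled points have an adjusted p under 0.05, black bars are list medians and the grey line is the median of all genes tested, 0.02. The medians are 0.31 for the host genes, −0.12 for other noncoding hosts, 0.07 for protein-coding hosts and −0.07 for snoRNP proteins. They are −0.05 for decay factors, 0.32 for other decay substrates, 0.18 for TOP mRNAs and −0.14 for growth control.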

How the data were processed

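RNA of 6 HepG2 cultures, given as poly(A), was sequenced as paired-end reads. After screening out tRNA, rRNA, adapter and spike-in reads, the authors mapped to GRCh38 by STAR 2.6.1, discarded alignments of low complexity and summarised the rest in featureCounts 1.6.5 with its defaults plus a quality cutoff, on an older Gencode release than the one used here for loci and overlaps. The deposited values are whole counts, neither normalized nor pooled. The counting defaults ignore strand and leave out reads that overlap several genes.

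In R 4.3.3, genes passing edgeR 4.0.16's filterByExpr at a minimum count of 10 were normalized by TMM and compared with edgeR's robust quasi-likelihood test of condition alone, with Benjamini-Hochberg adjustment over the 14476 genes tested. Standard errors were obtained from the F statistic, and intervals use the t quantile at the fit's degrees of freedom. The sizes of both thresholds are the study's, but the study set the fold threshold on shrunken DESeq2 values and also required a minimum mean TPM in its results, which was not applied here. Alternatives were DESeq2 1.42.0 with and without apeglm 1.24.0 shrinkage, RLE and upper-quartile normalization, no filter, no fold threshold, a replicate block and each library left out. The scripts were tested on simulated counts.

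The members and gene lists were chosen with earlier results of these data known. Named from each list were called genes, at most 4 per direction; any further list gene was picked with its values known. Positions and lengths came from Gencode 44, start regions from RefSeq. Some genes of the lists and loci are not reported here. Replicates of a group differed by more than sampling noise. Depth ran from 10527216 to 21334876 counts per library.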

Additional observations from a re-analysis of the deposited data

How the results depend on the processing

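For the 9 host genes, 108 of 117 values from 13 alternatives kept their direction and their side of the threshold, 3 lost the call, 5 gained it and 1 reversed. The number of host genes called higher was 1 with all libraries, 0 with DESeq2's shrunken fold changes and 3 with no fold change threshold; without 1 library it ran from 0 to 2. The shrunken SNHG5 value was 0.49. The reversal was that of SNHG1, at −0.020 without siDGUOK replicate 2, and its values without 1 library ran from −0.020 to 0.16. Genes called in the related lists went from 7 to 25 with no fold change threshold and ran from 6 to 8 without 1 library. Over all genes, 2041 were called, and 1704 to 1935 without 1 library. With a replicate block 2077 were called, and the block changed no call among the host genes. Over the genes tested, deviations from the group means correlated between the groups by 0.024, 0.0166 and −0.00224 for replicates 1, 2 and 3. No effect of replicate number shared by most genes was seen, and an effect limited to some genes was not tested. Whether the cultures were handled in matched sets is not given. The transcript lengths used for the order of levels were chosen after seeing the data. SNHG15 had too few counts for the test in edgeR.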
